A study of Mus musculus with 12 samples.

Results

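Integrin and laminin subunit genes encode receptors that hold cells to their matrix and the matrix proteins that several of those receptors bind. The genes described here were chosen by name: every gene symbol of the form Itga or Itgb with a number or one of the leukocyte letters, and every Lama, Lamb or Lamc symbol. Itgav, which encodes the αv chain, was not included. The array carried 33 such genes among 18193 genes with an unambiguous symbol, 23 integrin subunits and 10 laminin chains, and each was read from the probe set with the highest mean over all arrays.

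The samples were 12 microarrays of cells sorted from bones of young mice, which cover the limbs, skull cap, shoulder blade, vertebrae and ribs. The mice carry an inducible JUN, a subunit of the AP-1 transcription factor, and the JUN groups received doxycycline through the mother's drinking water for 2 days. Groups labelled -JUN are read as the arm without induction, and the labels do not say whether it lacked the drug or a transgene. The sorted osteoprogenitor populations are called SSC, CSP and Thy, with 2 JUN and 2 -JUN arrays each. The titles name 5 mice. Mice 4 and 7 (JUN) and mouse 3 (-JUN) gave all populations, mouse 3b (-JUN) gave CSP and Thy, and mouse 10 (-JUN) gave SSC. The labels give no promoter or cell type for the inducible allele, no age and no sort markers. Values are log2 expression, so a difference of 1 is a doubling. Levels of different genes come from different probes and are not set against each other.

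An integrin is a heterodimer of 1 α and 1 β chain that spans the membrane, binds matrix outside the cell and links to the actin cytoskeleton through talin inside it. A laminin is a trimer of 1 α, 1 β and 1 γ chain and is a main component of basement membranes, the thin sheets around blood vessels, muscle fibres, fat cells and nerve fibres. Chains α3, α6 and α7 make laminin receptors with β1, and α6 also pairs with β4. In bone marrow and periosteum, laminins are best known from vessel walls and from the sheaths of Schwann cells, while the collagen, fibronectin and vitronectin receptors serve skeletal progenitors in adhesion to the collagen-rich matrix.

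The promoter sequences bear on the JUN question, since AP-1 binds TGACTCA and TGAGTCA, searched here as TGANTCA. RefSeq promoters (build GRCm38.p6, 250 bases before to 50 after a start site) matched 21 of the 33 genes with 24 promoters. The 12 genes without a promoter include Itga6, Itga7 and Itgb3, the genes that passed in a population comparison below, so the motif counts leave them out. TGANTCA, which reads the same on both strands, stood in 3 of these 24 promoters, against 7.81% of 32851 promoters in all. The related letters TGACGTCA stood in 0 of 24, against 1.79% of all promoters. GGGCGG, the core of Sp1 sites, stood on either strand in 11 of 24, against 35.7% of all promoters. These motifs do not overlap one another in the sequences shown. The sequences that follow are Itga3 and Itga9, shown because they hold TGANTCA, and Itga5, shown because it had the lowest p of all these genes in the averaged JUN comparison and holds no TGANTCA. Capitals mark the motif letters, and each is printed 5′ to 3′ on the gene's strand. The Itga3 promoter is the more downstream of a pair listed for that gene, at chr11:95069149-95069448 on the minus strand, and its TGAATCA, which matches only through the open letter N, begins 12 bases after the start site. The Itga9 promoter also lies inside the gene, at chr9:118711442-118711741 on the plus strand, with TGACTCA beginning 38 bases after the start site. The Itga5 promoter lies at chr15:103366742-103367041 on the minus strand, with GGGCGG on the other strand at positions -149 and -6 from the start site.
Itga3: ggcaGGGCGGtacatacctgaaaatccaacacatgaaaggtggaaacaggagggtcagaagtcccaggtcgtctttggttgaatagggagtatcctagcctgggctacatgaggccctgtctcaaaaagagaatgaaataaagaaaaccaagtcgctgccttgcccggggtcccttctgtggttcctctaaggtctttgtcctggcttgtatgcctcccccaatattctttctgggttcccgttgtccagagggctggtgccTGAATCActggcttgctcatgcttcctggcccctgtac
Itga9: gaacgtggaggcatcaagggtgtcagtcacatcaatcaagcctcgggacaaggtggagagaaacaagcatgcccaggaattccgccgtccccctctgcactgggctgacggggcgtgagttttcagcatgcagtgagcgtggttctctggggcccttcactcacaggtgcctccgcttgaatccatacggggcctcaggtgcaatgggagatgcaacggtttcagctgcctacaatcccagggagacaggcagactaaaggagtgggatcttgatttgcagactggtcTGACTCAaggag
Itga5: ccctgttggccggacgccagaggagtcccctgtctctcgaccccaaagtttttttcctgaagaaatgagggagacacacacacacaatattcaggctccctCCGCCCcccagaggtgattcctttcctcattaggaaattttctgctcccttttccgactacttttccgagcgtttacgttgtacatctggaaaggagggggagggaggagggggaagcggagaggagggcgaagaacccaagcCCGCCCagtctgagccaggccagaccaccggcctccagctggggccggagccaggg
The remaining promoter with TGANTCA was that of Itgax, which encodes a leukocyte integrin chain, at chr7:128129300-128129599 on the plus strand, with the motif 56 bases before the start site. A motif match describes letters, and binding was not measured.

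Some properties of the arrays touch several results. Correlations between arrays ran between 0.872 and 0.979. The titles of SSC JUN 2, SSC -JUN 1 and SSC -JUN 3 carry a date, and no CSP or Thy title does. Apart from SSC JUN 1, dated title and SSC population therefore cannot be told apart in the SSC comparisons. Poly-A controls, which are spiked into the RNA before labelling, averaged 8.47 to 11.24 on SSC arrays, 9.95 to 11.77 on CSP arrays and 11.33 to 12.28 on Thy arrays. Xist reached 12.49 to 13.20 on the mouse 3 arrays, against 6.11 to 7.29 elsewhere. Mouse 3 is a -JUN animal that gave all populations. This difference between animals therefore enters every JUN comparison, and the main fit does not adjust for it. Chondrocyte genes (10 measured) averaged between 13.08 and 13.20 in SSC JUN 1, CSP JUN 1 and CSP -JUN 2, and between 8.45 and 10.94 elsewhere. Thy1 lay between 12.80 and 13.30 in Thy arrays, above every SSC and CSP array. Jun itself was 13.18 and 12.13 in SSC JUN against 12.60 and 12.06 in SSC -JUN arrays. In CSP it was 12.92 and 12.82 in JUN against 13.37 and 13.24 in -JUN arrays, and in Thy 13.03 and 12.90 in JUN against 12.81 and 13.65 in -JUN arrays. In CSP both JUN arrays lay below both -JUN arrays, and in SSC and Thy the arms overlapped. The labels do not say whether the probe set detects the induced allele.

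Of the 33 genes, 27 lay above the array median in at least 2 arrays and were tested with the other genes that passed this filter, 12516 in all. The other 6 were above the median in 0 arrays. They were the leukocyte chains Itgae, Itgal, Itgam and Itgax, with Itgb2 and Itgb6. Itgb2 is the partner of Itgal, Itgam and Itgax, and Itgb6 is an epithelial receptor chain for latent TGF-β. Itgam, for example, lay between 5.16 and 5.92 on all arrays, and Itgb6 between 5.04 and 6.34. A list of 12 leukocyte markers averaged between 6.78 and 7.43, and 7 of the 12 passed the filter. Ptprc, the pan-leukocyte gene for CD45, was above the median in 0 arrays (5.45 to 6.54), while the myeloid genes Cd68 and Lyz2 were above it in 11 each.

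**Figure D1:**
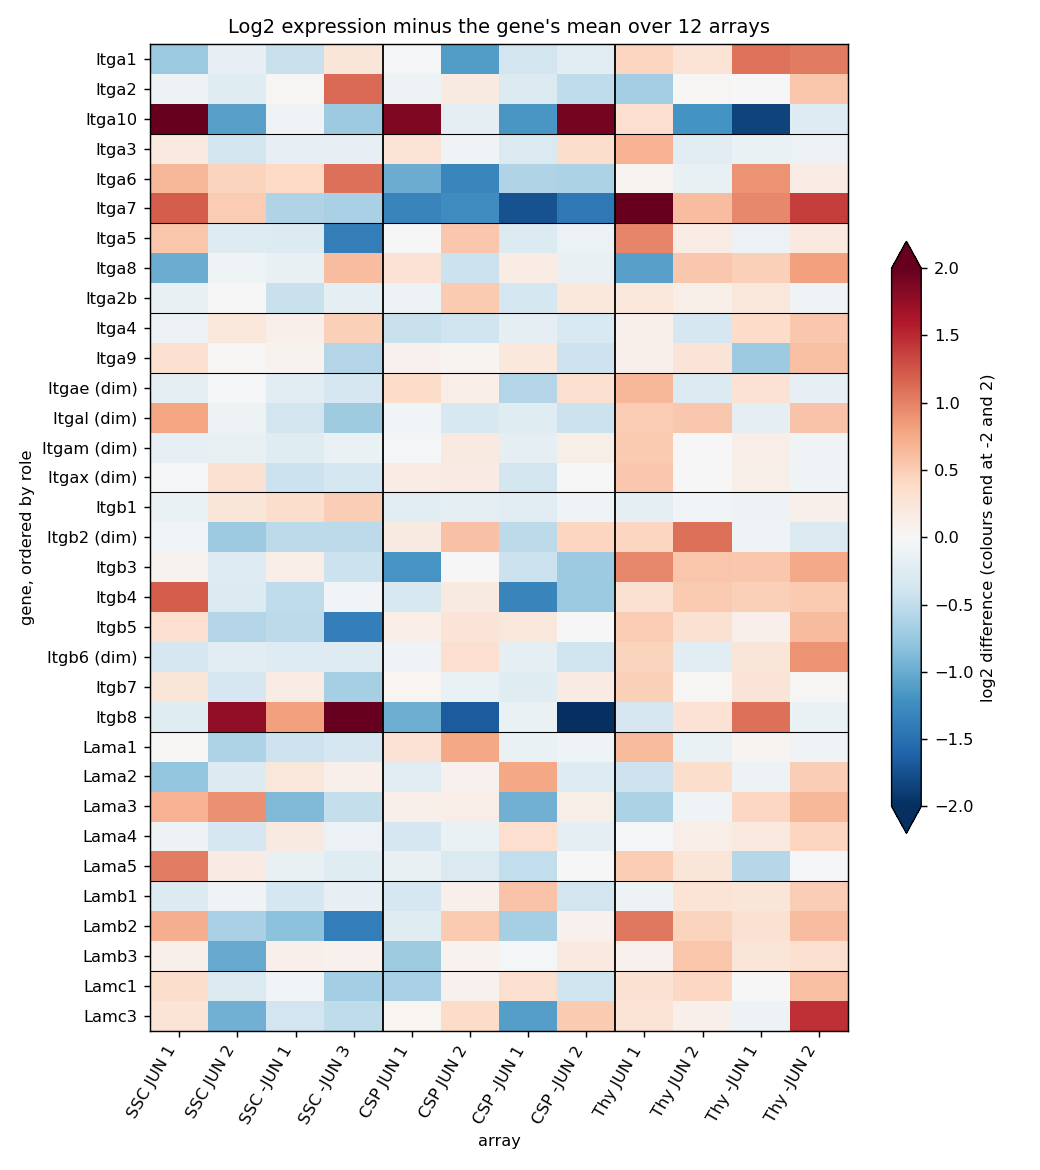
Each cell gives a gene's log2 expression on an array minus that gene's mean over the 12 arrays, with colours ending at -2 and 2. Genes run down the page by role, arrays run left to right by population with JUN before -JUN, and genes marked dim did not pass the filter. Itga6 and Itga7 are blue in all 4 CSP arrays, and Itga10 is dark red in SSC JUN 1, CSP JUN 1 and CSP -JUN 2.

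SSC and CSP cells differed in the gene for the α6 laminin-receptor chain. Itga6 was higher in SSC than in CSP cells by 1.53 ± 0.23 (log2 difference ± SE, 4 arrays each, adjusted p = 0.0115), and it was the only 1 of 27 genes to pass, against 0.431% of all tested genes (54 genes). All p-values given as adjusted are from limma with Benjamini-Hochberg adjustment over 12516 genes and a threshold of 0.05, and they measure the spread between these samples. In these bulk sorts, fewer cells of a type and less RNA per cell cannot be told apart.

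Itga6 (chr2:71786886-71858427 in GRCm38.p6) had 11.57 and 11.35 in SSC JUN arrays and 11.30 and 12.01 in SSC -JUN arrays. In CSP JUN arrays it had 9.93 and 9.60, and in CSP -JUN arrays 10.30 and 10.27. All 4 SSC arrays lay above all 4 CSP arrays, and SSC exceeded CSP by 1.001 to 1.75 within each of the 3 mice that gave both. The gene's second probe set gave a difference of 1.10. With the mouse as a replicate block the difference was 1.41 with adjusted p = 0.116, so the call was lost. It was also lost without SSC -JUN replicate 3 (adjusted p = 0.054), without CSP -JUN replicate 2 (0.051) and without mouse 3b, 4 or 7 (0.060 to 0.14).

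Itga7 and Itgb8 had large SSC minus CSP differences that did not pass. Itga7, the gene for a laminin-receptor chain known from muscle and perivascular cells, had 10.68 and 9.97 in SSC JUN arrays and 8.87 and 8.83 in SSC -JUN arrays, against 8.14, 8.22, 7.72 and 8.04 in CSP arrays. The populations did not overlap, and the difference was 1.56 ± 0.37 with adjusted p = 0.150. Itgb8, whose product pairs with αv and frees active TGF-β from its latent complex, had 7.67 and 9.68 in SSC JUN and 8.74 and 10.63 in SSC -JUN arrays, against 6.94, 6.24, 7.78 and 4.68 in CSP arrays. The difference was 2.77 ± 0.68, SSC was above CSP in 3 of 3 mice, and the groups overlapped by the 7.78 of CSP -JUN 1 (adjusted p = 0.181).

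Of the 27 genes, 7 had an unadjusted p under 0.05 for SSC minus CSP, against 6.51% of all tested genes. Besides those above they were Itga4 (0.50, the chain that binds VCAM1 and fibronectin), Itgb1 (0.42, the shared partner of most α chains), Itgb5 (-0.68, a vitronectin-receptor chain) and Lama1 (-0.55, the α chain of the embryonic laminin). The second brightest probe set of Itgb1 gave -0.16, so that gene's direction depends on the probe set. So does that of Itga4, whose other 4 probe sets gave values between -0.21 and 0.23. Arrays of the populations did not overlap for 3 genes, Itga4, Itga6 and Itga7, all higher in SSC, against 2.21% of all tested genes in that direction and 4.07% in either. Lama1 was above the array median in 0 SSC arrays and passed the filter only through CSP JUN 1, CSP JUN 2 and Thy JUN 1, where it was high. The count of 7 genes includes it and so supports nothing. Over the 27 genes, 11 differences were above and 16 below 0, with a median of -0.02 against -0.05 over all tested genes. Among all tested genes, 42.2% lay above 0. The 16 include Lama1, Lamb3 and Lamc3, above the array median in no SSC array. The 11 include Lama3, above it in no CSP array, so these counts also support nothing.

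CSP cells had less Itga6, Itga7 and Itgb3 than Thy cells. The differences were -2.75 ± 0.37 for Itga7 (adjusted p = 0.00547), -1.29 ± 0.26 for Itgb3 (adjusted p = 0.0373) and -1.12 ± 0.23 for Itga6 (adjusted p = 0.0396). These 3 of 27 genes passed, all lower in CSP, against 0.991% of all tested genes (124 genes). In all 7 genes had an unadjusted p under 0.05, against 12% of all tested genes, and the other 4 were also lower in CSP: Itga1, Itgb4, Itga4 and Itgb8.

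Itga7 (chr10:128933421-128958286) fell most. It had 8.14 and 8.22 in CSP JUN and 7.72 and 8.04 in CSP -JUN arrays, against 11.77 and 10.09 in Thy JUN and 10.43 and 10.85 in Thy -JUN arrays. Every CSP array lay below every Thy array, and CSP was lower within each of 4 mice, by differences of -3.63 to -1.86. With the mouse as a replicate block the difference stayed at -2.75 with adjusted p = 0.00708, and the call was kept in 15 of 16 fits that each left out an array or a mouse. The exception was the fit without mouse 3 (-2.77, adjusted p = 0.113).

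Itgb3 (chr11:104608000-104670476) encodes the β chain of the αvβ3 vitronectin receptor and of the platelet fibrinogen receptor. It had 10.38 and 11.55 in CSP JUN and 11.14 and 10.84 in CSP -JUN arrays, against 12.52 and 12.12 in Thy JUN and 12.10 and 12.33 in Thy -JUN arrays. The populations did not overlap, CSP was lower in 4 of 4 mice, and the second probe set gave -1.37. Itga6 in Thy cells had 10.97 and 10.76 in JUN and 11.80 and 11.06 in -JUN arrays, all above the CSP values given before, and its second probe set gave -0.65. With the mouse as a replicate block neither passed (adjusted p = 0.0768 for Itgb3 and 0.0705 for Itga6), and the Itgb3 call held in 4 of 16 leave-out fits (without SSC JUN 1, SSC -JUN 3, CSP JUN 2 or mouse 7) and the Itga6 call in 2 of 16 (without SSC JUN 1 or SSC -JUN 1).

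Itga1, Itgb4 and Itgb8 did not pass between CSP and Thy. Itga1, a collagen-receptor chain with a preference for the collagen of basement membranes, had 9.52, 8.44, 9.19 and 9.34 in CSP arrays, against 9.99, 9.83, 10.64 and 10.60 in Thy arrays. The arrays did not overlap, and the difference was -1.14 ± 0.26 (adjusted p = 0.0688). Itgb4, the α6 partner of hemidesmosomes, had 8.25, 8.76, 7.26 and 7.84 in CSP arrays, against 8.89, 9.11, 9.06 and 9.10 in Thy arrays, a difference of -1.02 ± 0.33 (adjusted p = 0.241). Itgb8 differed by -1.73 ± 0.68 (adjusted p = 0.348), with overlapping arrays.

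In all, arrays of CSP and Thy did not overlap for 5 genes, all lower in CSP, against 4.29% of all tested genes in that direction and 6.13% in either. Of the 27 genes, 23 had a difference below 0 and 4 above, with a median of -0.26 against -0.04 over all tested genes. Among all tested genes, 45.4% lay above 0. The 23 include Lama3, which lay above the array median in no CSP array. It passed the filter only through SSC and Thy arrays, so the count and the median support nothing. None of the 10 laminin chains passed: the β and γ chains ran between -0.68 and -0.24, and the α chains between -0.27 and 0.09, with 2 of 5 above 0.

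**Figure D2:**
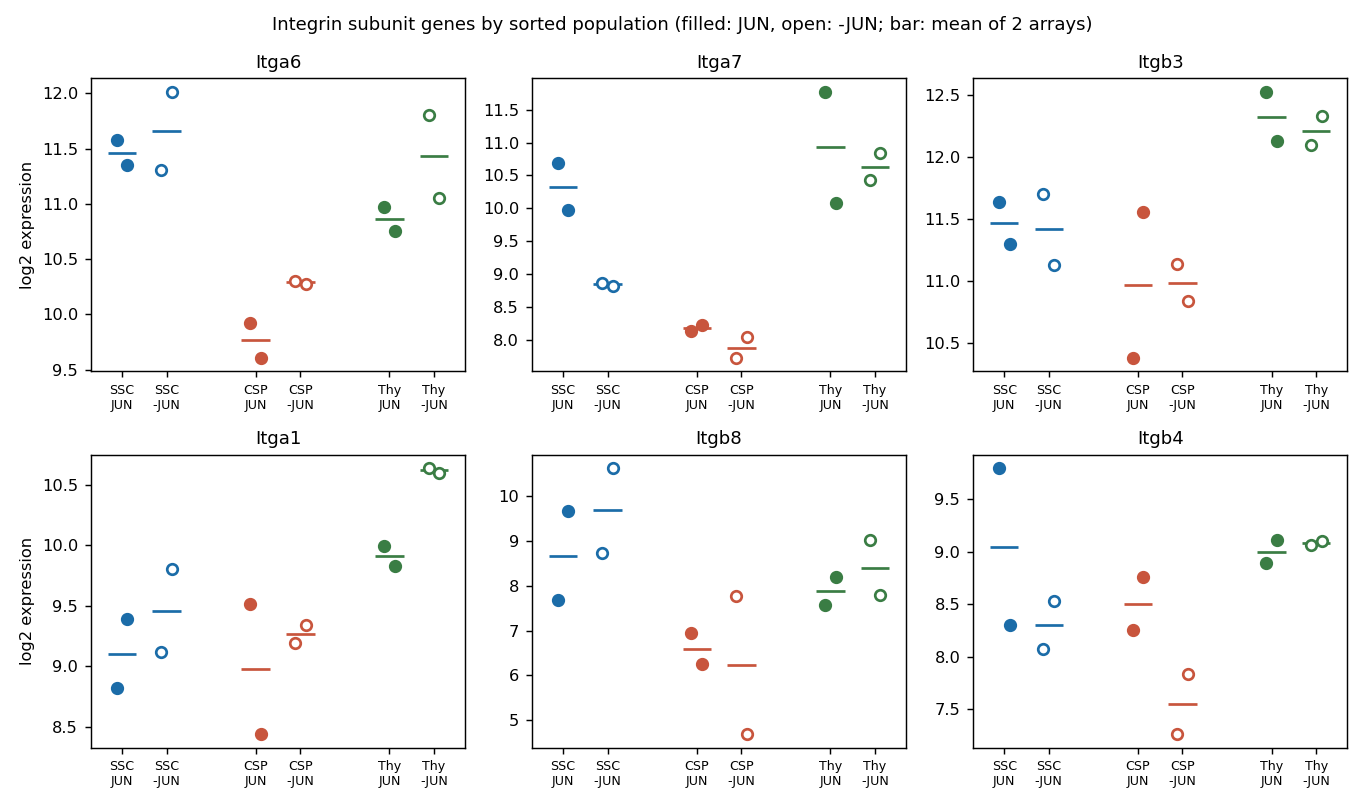
Log2 expression of 6 integrin genes on every array, by population, with filled points for JUN, open points for -JUN and a bar at the mean of the 2 arrays of a group. Itga6 and Itga7 are lowest in the CSP arrays, Itgb3 and Itga1 are highest in the Thy arrays, and the 2 Itgb4 values of CSP -JUN are the lowest of that gene.

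No integrin or laminin gene passed between SSC and Thy cells (0 of 27, against 0.391% of all tested genes, 49 genes). An unadjusted p under 0.05 was found for 5 genes, against 17.7% of all tested genes, and all were lower in SSC. Itga1 differed by -0.98 ± 0.26 (adjusted p = 0.118), with 8.82, 9.39, 9.12 and 9.80 in SSC arrays, all below the Thy arrays. Itgb3 differed by -0.82 ± 0.26 (adjusted p = 0.161), with 11.64, 11.30, 11.70 and 11.13 in SSC arrays, also all below Thy. These were the only 2 genes without overlap, against 5.18% of all tested genes lower in SSC and 7.61% in either direction.

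The other 3 were Itga7 (-1.20 ± 0.37), Lamb2 (-1.14 ± 0.34) and Itgb5 (-0.92 ± 0.28), with adjusted p-values between 0.155 and 0.159. Lamb2, the β chain of laminins at synapses and in vessel and kidney membranes, had 11.71, 10.34, 10.17 and 9.61 in SSC arrays, against 12.05, 11.44, 11.29 and 11.61 in Thy arrays. SSC JUN 1 lay inside the Thy range and the other 3 SSC arrays below it. With the poly-A control level as a covariate, the differences of Lamb2 (0.059) and Itga7 (0.069) turned to the other side of 0. Of the 27 genes, 20 were below and 7 above 0, with a median of -0.34 against -0.09 over all tested genes. Among all tested genes, 42.3% lay above 0. The 20 include Lama1, Lamb3 and Lamc3, which lay above the array median in no SSC array. They passed the filter only through CSP or Thy arrays, so the count and the median support nothing.

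**Figure D3:**
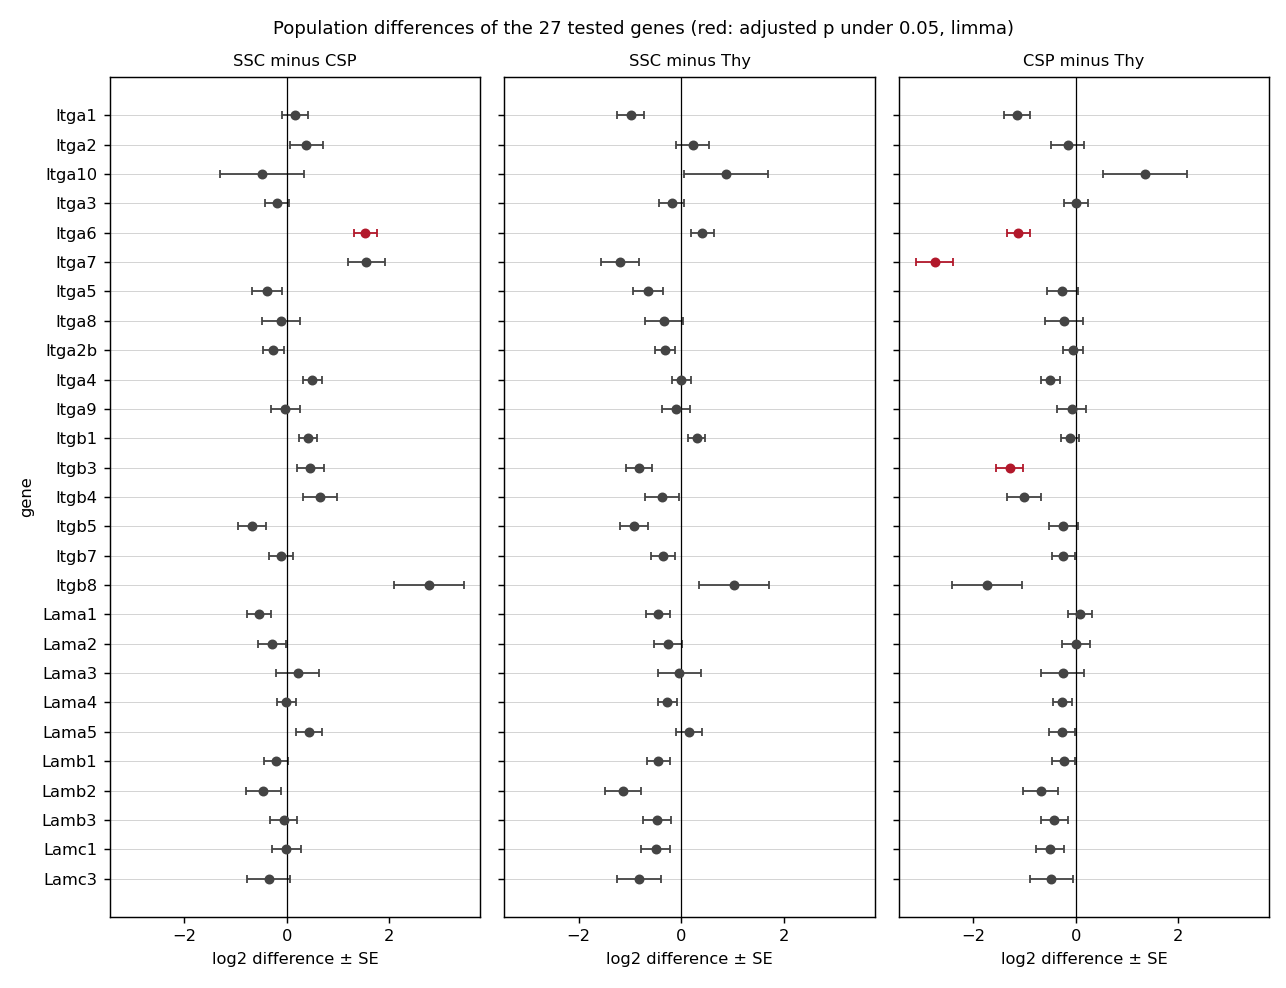
Log2 differences with their standard errors for the 27 tested genes, SSC minus CSP, SSC minus Thy and CSP minus Thy, on a shared axis, with 4 arrays in each population. Red marks adjusted p under 0.05: Itga6 in SSC minus CSP, and Itga6, Itga7 and Itgb3 in CSP minus Thy.

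Set out by role, the 3 laminin-binding α chains had these levels. Itga6 averaged 11.56 ± 0.32 in SSC, 10.03 ± 0.33 in CSP and 11.15 ± 0.46 in Thy cells (SD, n = 4 each), with SSC and Thy not separated beyond their spread. Itga7 averaged 9.59 ± 0.90 in SSC, 8.03 ± 0.22 in CSP and 10.78 ± 0.73 in Thy cells. Itga3, the third α chain of this kind, averaged 8.24 ± 0.23 in SSC, 8.43 ± 0.30 in CSP and 8.42 ± 0.42 in Thy cells, and its populations differed by no more than 0.19. Their partner Itgb1 averaged 13.06 ± 0.27 in SSC, 12.64 ± 0.06 in CSP and 12.76 ± 0.13 in Thy cells.

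Among the collagen receptors, Itga10, a chain known from cartilage, varied most. It had 12.44 and 8.96 in SSC JUN, 9.98 and 9.32 in SSC -JUN, 11.91 and 9.87 in CSP JUN, and 8.88 and 11.96 in CSP -JUN arrays. In Thy arrays it had 10.39, 8.85, 8.20 and 9.78. The 3 high arrays were the same 3 in which the chondrocyte list averaged 13.08 or more, and Acan, the cartilage proteoglycan gene, had 14.20, 13.48 and 13.31 there. The part of chondrocytes in these values was not tested. Its standard errors were correspondingly wide, with 1.35 ± 0.82 for CSP minus Thy. Itga2, the other collagen-binding chain, averaged 9.17 ± 0.63 in SSC, 8.79 ± 0.29 in CSP and 8.94 ± 0.52 in Thy cells.

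The fibronectin-receptor chain Itga5 averaged 12.46 ± 0.80 in SSC, 12.85 ± 0.35 in CSP and 13.11 ± 0.47 in Thy cells. The size of its SSC minus Thy difference depends on the probe set: -0.65 in the one used, and -1.37, -0.37 and -0.49 in the others. Itga8, which binds nephronectin, averaged 8.61 ± 0.66 in SSC, 8.73 ± 0.32 in CSP and 8.95 ± 0.86 in Thy cells. The direction of its SSC differences depends on the probe set. SSC minus CSP was -0.12 and SSC minus Thy -0.34 in the one used, against 0.89 and 1.04 in the dimmer second one. Itga9, the tenascin-binding chain, averaged 10.06 ± 0.38 in SSC, 10.09 ± 0.27 in CSP and 10.16 ± 0.57 in Thy cells. Its CSP minus Thy difference was -0.08 in the probe set used, and -0.80 and -0.42 in the others, which were about as bright. Itga2b, the platelet chain, lay between 8.53 and 9.50 on all arrays. Of 6 megakaryocyte and platelet markers measured, 0 passed the filter. None of these 4 genes passed in a population comparison.

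None of the 10 laminin chains passed in a population comparison. Lamb1 and Lamc1, which encode the β1 and γ1 chains of the commonest laminins, averaged 13.46 ± 0.12 and 12.47 ± 0.43 in SSC, 13.67 ± 0.44 and 12.47 ± 0.44 in CSP, and 13.91 ± 0.24 and 12.97 ± 0.25 in Thy cells. Lama4, the α chain of vascular laminin, averaged 13.04 ± 0.21 in SSC, 13.05 ± 0.29 in CSP and 13.31 ± 0.19 in Thy cells. Lama2, the α chain of muscle and nerve sheaths, averaged 12.37 ± 0.45 in SSC, 12.65 ± 0.47 in CSP and 12.64 ± 0.41 in Thy cells. Lama5 averaged 9.21 ± 0.57 in SSC, 8.78 ± 0.21 in CSP and 9.05 ± 0.46 in Thy cells.

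Lamb2, given above, was above the array median in all 12 arrays, and the other 4 laminin genes were dim. Lama3 and Lamb3, chains of the epithelial laminin, were above the array median in 4 arrays each, Lama1 in 3 and Lamc3 in 2. Lama3 ran between 6.43 and 8.31, Lamb3 between 6.54 and 8.10, Lama1 between 6.93 and 8.33 and Lamc3 between 6.12 and 8.68. Differences of such dim probe sets are compressed by the processing.

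Markers of some other cell types also differed between the populations. The 6 Schwann cell markers measured averaged between 10.57 and 11.16 in SSC, between 7.99 and 8.72 in CSP and between 9.73 and 11.28 in Thy arrays. Of these, 4 passed, Mbp, Sox10, Mal and Cnp, all higher in SSC than CSP (2.41 to 4.47) and all lower in CSP than Thy (-3.06 to -2.11). All 6 lay above 0 in SSC minus CSP, while in CSP minus Thy 5 lay below 0 and 1 above. By the list mean, CSP arrays were the lowest, as they were for Itga6 and Itga7. The 8 smooth muscle and pericyte markers averaged between 10.34 and 11.20 in SSC, between 10.39 and 10.61 in CSP and between 11.26 and 12.15 in Thy arrays. Rgs5, Des, Notch3 and Acta2 passed as lower in CSP than Thy, and Rgs5, Des and Notch3 as lower in SSC than Thy. In SSC minus Thy 2 of the 8, Myh11 and Tagln, lay above 0, and in SSC minus CSP Acta2, Myh11 and Tagln had differences of 1.08 to 2.08 that did not pass. Thy arrays were the highest for that list as well as for Itga1 and Itgb3, each array above all SSC and CSP arrays. The 9 endothelial markers averaged between 7.16 and 7.63 in SSC, between 7.93 and 9.06 in CSP and between 7.65 and 8.57 in Thy arrays. Of 7 tested, Esam passed, as lower in SSC than Thy (-1.61 ± 0.28, adjusted p = 0.0379) and lower in CSP than Thy (-1.67 ± 0.28, adjusted p = 0.0142). Most of the list went the other way in CSP minus Thy, with 5 of 7 above 0 and a median of 0.33. In SSC minus CSP 5 of 7 lay below 0 (median -1.16), and in SSC minus Thy 6 of 7 (median -0.71). The part of Schwann cells, smooth muscle cells, pericytes or endothelial cells in the integrin differences was not tested.

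**Figure D4:**
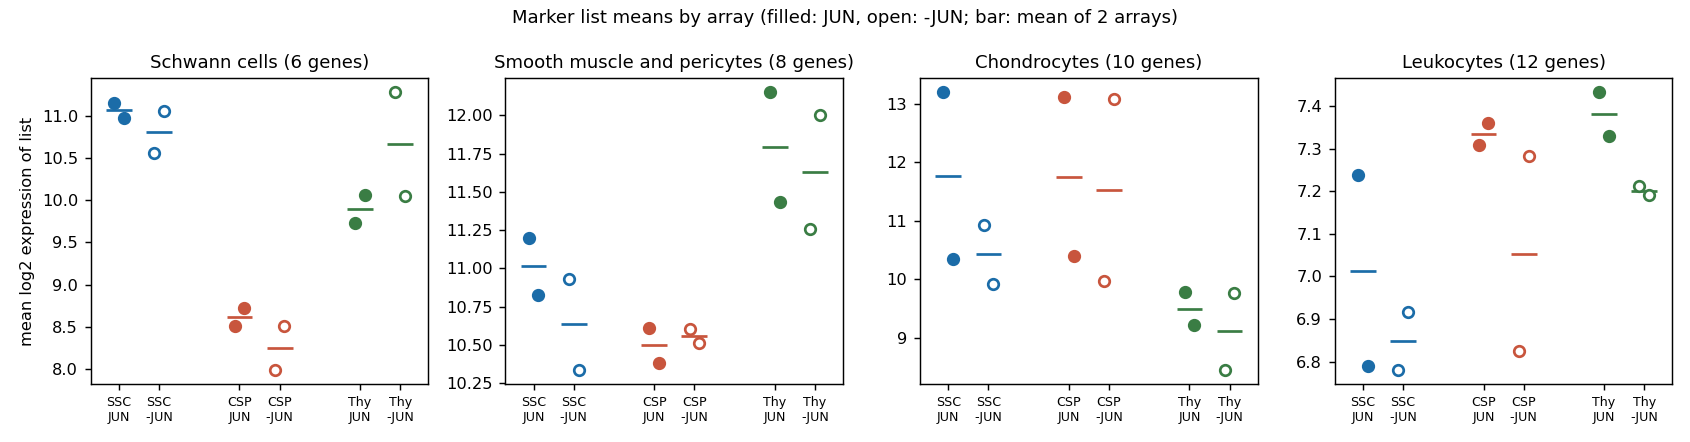
Mean log2 expression of 4 marker lists on every array, by population, with filled points for JUN, open points for -JUN and bars at the mean of the 2 arrays of a group. Schwann markers are lowest in CSP arrays, smooth muscle and pericyte markers highest in Thy arrays, chondrocyte markers high in 3 arrays, and leukocyte markers between 6.78 and 7.43.

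Other genes of the adhesion pathway were read from 3 lists. In CSP minus Thy 1 of 21, 1 of 15 and 2 of 16 of their tested genes passed, against 0.991% of all tested genes. Of 21 tested genes for proteins that link integrins to actin or signal from them, Lims2, an adaptor of the integrin-linked kinase complex, fell in CSP against Thy (-1.89 ± 0.29, adjusted p = 0.00895), and 0 passed in SSC minus CSP or SSC minus Thy. In SSC minus Thy, 19 of the 21 differences were below 0, with a median of -0.33 against -0.09 over all tested genes. Lims2 (-1.46 ± 0.29, adjusted p = 0.0559) and Tln1, the gene for talin (-1.13 ± 0.28, adjusted p = 0.102), had the lowest p there. Of 15 tested basement membrane genes besides laminins, Smoc1 was higher in CSP than Thy (1.95 ± 0.32, adjusted p = 0.0128), and Bcam, a laminin receptor outside the integrin family, did not pass at -1.25 ± 0.27 (adjusted p = 0.0574). Of 16 tested integrin ligands other than laminins, Vtn, the gene for vitronectin, was lower in CSP than Thy (-2.12 ± 0.43, adjusted p = 0.0394), and Egfl6, a matrix protein with an integrin-binding sequence, was higher (1.42 ± 0.26, adjusted p = 0.0233). No gene of these ligand and basement membrane lists passed between SSC and CSP or between SSC and Thy.

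After 2 days of JUN induction no integrin or laminin gene passed in SSC, CSP or Thy cells, in the average over populations or in the test for a difference between populations. The count was 0 of 27 in each, and 0% of all 12516 tested genes passed in each, with 2 arrays against 2 in a population. At an unadjusted p under 0.05 the counts were 3 of 27 in SSC (6.5% of all tested genes), 0 in CSP (2.3%), 1 in Thy (3.04%), 3 in the average (12.5%) and 1 in the test for a difference (1.15%). The counts in SSC, in Thy and in the test for a difference include Lama3, which passed the filter only through groups where it was high, so they support nothing.

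In SSC cells the genes of lowest p were Lama3, Itga7, Lamb2 and Lama5, all with adjusted p = 0.690. Itga7 had 10.68 and 9.97 in SSC JUN arrays against 8.87 and 8.83 in SSC -JUN arrays, a difference of 1.48 ± 0.49. Both JUN arrays lay above both -JUN arrays. The JUN minus -JUN difference of Itga7 was 0.30 ± 0.49 in CSP and 0.29 ± 0.49 in Thy cells, with adjusted p = 0.9997 for a difference between populations. Without mouse 7 the Itga7 difference was 1.84 in SSC and 1.08 in the average over populations. That fit leaves 1 JUN array per population, assumed to vary like the other groups. Over all alternatives the Itga7 difference ran from 0.41 to 1.84 in SSC and from 0.067 to 1.08 in the average. Fits that left out an array or a mouse went no lower than 1.12 and 0.30, so the lowest values came from other settings.

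Lama3 had 8.10 and 8.31 in SSC JUN arrays against 6.51 and 6.93 in SSC -JUN arrays, a difference of 1.49 ± 0.38. In Thy cells it had 6.77 and 7.33 in JUN arrays against 7.82 and 8.06 in -JUN arrays, a difference of -0.89 ± 0.38 (adjusted p = 0.985). The arrays did not overlap in either population, and the sign was opposite. Lama3 lay above the array median only in these 2 SSC JUN and 2 Thy -JUN arrays, so it passed the filter only through the groups where it was high, and its difference is given as a description. The test for a difference between populations gave an unadjusted value under the threshold but adjusted p = 0.9997, and the gene's second probe set gave -0.25 in SSC and -0.67 in Thy.

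Lamb2 had 11.71 and 10.34 in SSC JUN arrays against 10.17 and 9.61 in SSC -JUN arrays, a difference of 1.13 ± 0.50. With the poly-A control level as a covariate it was -0.048. These controls were 11.24 and 9.95 in SSC JUN arrays against 8.47 and 9.11 in SSC -JUN arrays, so they moved with the arms there. Itga5 (0.97 ± 0.46) and Itgb5 (0.82 ± 0.40) were next, with Itga5 at 13.35 and 12.54 in SSC JUN against 12.54 and 11.42 in SSC -JUN arrays.

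In CSP cells the lowest p belonged to Itgb4, with 8.25 and 8.76 in JUN arrays against 7.26 and 7.84 in -JUN arrays, a difference of 0.96 ± 0.46. Lama1 (0.65 ± 0.35), Itga6 (-0.52 ± 0.35) and Lama3 (0.54 ± 0.38) followed, all with adjusted p = 0.995. Lama1 passed the filter only through CSP JUN 1, CSP JUN 2 and Thy JUN 1, and Lama3 lay above the array median in no CSP array. In Thy cells Lama3 was followed by Itga4 (-0.57 ± 0.29), Lama5 (0.67 ± 0.36) and Itga1 (-0.71 ± 0.40), all with adjusted p = 0.985. Itga1 had 9.99 and 9.83 in Thy JUN arrays against 10.64 and 10.60 in Thy -JUN arrays, without overlap.

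Averaged over the populations, Itga5 was 0.65 ± 0.26 higher in JUN than in -JUN arrays, Itga7 0.69 ± 0.28 and Lama5 0.50 ± 0.21, all with adjusted p = 0.396, and Lamb2 0.62 ± 0.29 with adjusted p = 0.398. None passed. All 4 probe sets of Itga5 gave averages above 0, between 0.50 and 0.89. For 0 of the 27 genes did the 6 JUN arrays lie apart from the 6 -JUN arrays, against 0.376% of all tested genes. Within populations, the JUN and -JUN arrays did not overlap for 9 genes in SSC (38.4% of all tested genes), 7 in CSP (31.2%) and 6 in Thy (28.7%). The SSC and Thy counts include Lama3 and the CSP count includes Lama1. Both genes passed the filter only through arrays where they were high, so these counts support nothing.

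The medians of the 27 JUN differences lay close to those of all tested genes: 0.09 against 0.08 in SSC, 0.06 against 0.07 in CSP, 0.04 against 0.04 in Thy and 0.07 against 0.07 in the average. Among the adhesion proteins inside the cell, 0 of 21 passed, with a median of 0.21 in the average and 15 of 21 above 0. Pxn, the gene for the focal adhesion adaptor paxillin, had the lowest p of that list at 0.72 ± 0.23 (adjusted p = 0.396). Of the other basement membrane genes 0 of 15 passed and of the other ligands 0 of 16, with medians of 0.07 and 0.20 in the average.

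**Figure D5:**
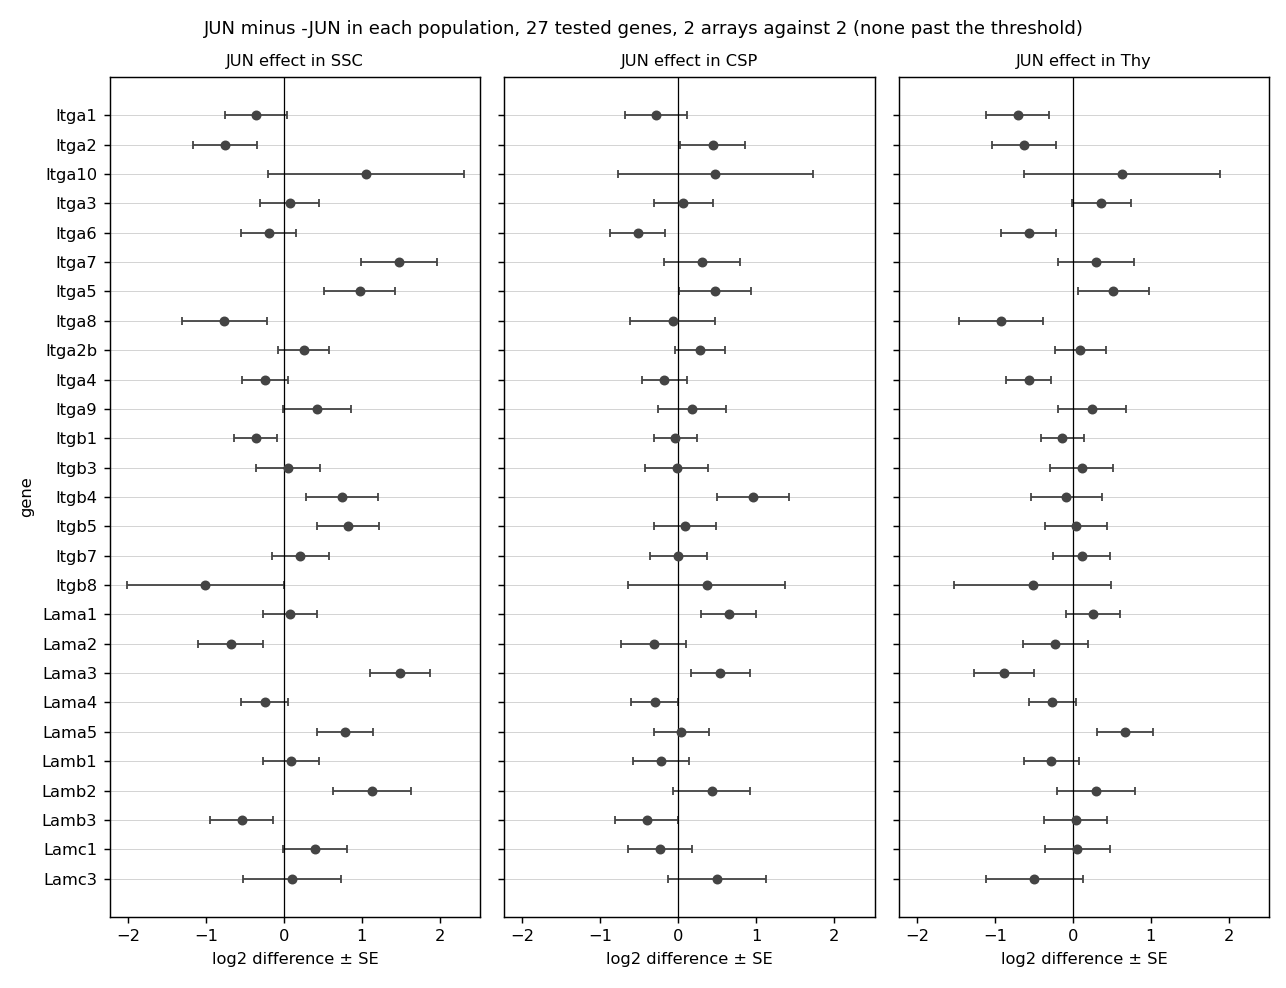
Log2 differences JUN minus -JUN with their standard errors for the 27 tested genes in SSC, CSP and Thy cells, on a shared axis, 2 arrays against 2 in each panel. No gene had adjusted p under 0.05, and Lama3 lies to the right of 0 in SSC (1.49) and to the left in Thy (-0.89).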

How the data were processed

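Per the submitters' processing notes, the authors made the deposited log2 expression values with RMA, a method that removes background, equalises the distributions of the arrays and combines each probe set's probes. Software and settings of that step are not given in the sources used. Values between 3.20 and 15.99 bear out a log2 scale. RMA compresses differences of dim probe sets and hides a change in total RNA. The precision rests on 12 arrays, and array intensities were not analysed here.

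Of 45101 probe sets, 64 controls were left out, and 34945 of the rest carried 1 symbol in the platform annotation, 932 several and 9160 none. Names were checked against a reference gene table, which changed 0. A probe set was kept if above its array's median in at least 2 arrays (26560 kept). Differences were tested two-sided with limma 3.58.1 in R 4.3.3 (lmFit, eBayes), with adjusted p under 0.05 over 12516 genes. JUN effects came from a model of 6 group means (6 residual degrees of freedom), the averaged effect with no mouse block, and population differences from a model of population and arm (8 degrees of freedom). Groups were taken from the sample descriptions. Mouse numbers in the titles pair populations of 1 animal, which for mice 3 and 7 links dated with undated titles. Deviations of same-mouse arrays from the model correlated between -0.19 and 0.36, over 0.1 in 1 of 6 distinct values. The mouse as a replicate block was the paired alternative for population differences. For JUN effects the block was the replicate number, which pairs different animals. The average was also fitted with the mouse as a random block (consensus correlation -0.0602). Alternatives were the filter, probe set choice, eBayes settings, array weights, each arm alone, leaving out each array or mouse (mouse 10 gave 1 array), a term for dated titles and a poly-A covariate, the last 2 added after seeing the data. The members and lists were chosen with earlier results of these data known. Every member may be named with its levels. Each comparison gives differences for members past the threshold, otherwise for up to 8 of lowest p, and each list gives up to 4 genes of lowest p. The statistics were tested on simulated data.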

Additional observations from a re-analysis of the deposited data

Results flagged for a closer look

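In 3 genes, 1 array stood far from the other 3 of its population by Dixon's test at 95%, of 81 groups of 4 looked at, and chance flags about 1 in 20 such groups. Itga3 was 9.06 in Thy JUN 1, against 8.16 to 8.25 in the other Thy arrays. Lama3 was 6.43 in CSP -JUN 1, against 7.50 to 7.53 in the other CSP arrays. Lamb3 was 6.54 in SSC JUN 2, against 7.64 to 7.66 in the other SSC arrays.

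Itga2 and Lama3 had JUN differences of opposite sign in a pair of populations, with no overlap of arrays in either. Itga2 differed by -0.75 in SSC and by 0.44 in CSP, with adjusted p = 0.9997 for a difference between populations (limma, moderated F test). Lama3 differed by 1.49 in SSC and by -0.89 in Thy, with adjusted p = 0.9997 in the same test, but it passed the filter only through the SSC JUN and Thy -JUN arrays where it was high, so this is a description.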

How the results depend on the processing

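With the mouse as a replicate block, which compares populations within animals, 0 of these genes passed for SSC minus CSP (8 of all genes) and 1, Itga7, for CSP minus Thy (125 of all genes), and 4 of all genes passed for SSC minus Thy. In the population comparisons no other call among these genes changed under the block. For the JUN effects the block was the replicate number, which pairs different animals, because each mouse belongs to 1 arm. None of these genes passed there. With array weights 2 genes passed for SSC minus CSP (Itga6, Itgb8), 4 for SSC minus Thy (Itga1, Itga7, Itgb5, Lamb2) and 5 for CSP minus Thy (Itga1, Itga6, Itga7, Itgb3, Itgb4), and 156, 572 and 321 of all genes. From JUN arrays alone 0 passed for SSC minus CSP and 0 for CSP minus Thy, with 8, 0 and 4 of all genes in the 3 comparisons, and from -JUN arrays alone 0 and 0, with 1, 1 and 21, in groups of 2. Itga7 was -2.75 for CSP minus Thy in either arm. With a term for dated titles, 0 genes passed for SSC minus CSP, with 23 of all genes there and 10 for SSC minus Thy, and Itgb5 in SSC minus CSP reversed to 0.12. That term rests on SSC JUN 1, the only SSC array without a date, against the other SSC arrays, so it cannot separate date from population. With the poly-A covariate 2 passed for SSC minus CSP (Itga6, Itga7, with 66 of all genes) and 1 for CSP minus Thy (Itga7), with 0 of all genes for SSC minus Thy and 50 for CSP minus Thy. Reversed under it were Lamb2 in SSC under JUN (-0.048), in the JUN average (-0.070) and in SSC minus Thy (0.059), and Itga7 in SSC minus Thy (0.069). Without the filter 24 of all genes passed for SSC minus Thy, and with the mean of a gene's probe sets 75. The cause of these shifts was not tested.

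Leaving out each array or mouse in turn (mouse 10 gave only SSC -JUN 3 and is left out with it), the genes passing ran from 0 to 2 for SSC minus CSP (7 to 62 of all genes), 0 to 2 for SSC minus Thy (3 to 304) and 0 to 3 for CSP minus Thy (17 to 155). For JUN they ran from 0 to 1 in SSC (0 to 282 of all genes) and in the average (0 to 495), the 1 being Itga7 without mouse 7, and were 0 throughout in CSP (0 to 2), in Thy (0 to 175) and in the test for a difference (0 of all genes). SSC minus Thy reached 2 without SSC JUN 1 (Itgb5 and Lamb2), and CSP minus Thy reached 0 without mouse 3. Itga7 also passed without Thy JUN 2 for SSC minus CSP (adjusted p = 0.0381) and SSC minus Thy (0.0499), and Itga1 without CSP JUN 1 for CSP minus Thy (0.0371). Over all alternatives the adjusted p ran from 0.00626 to 0.652 for Itga6 in SSC minus CSP, and in CSP minus Thy from 0.000901 to 0.199 for Itga7, 0.0054 to 0.637 for Itgb3 and 0.0256 to 0.711 for Itga6. Most of the 846 refitted values of single genes belong to results that had not passed and stayed so, and 5 reversed in direction. The Itga6 call in SSC minus CSP was kept in 16 of 25 refits. In CSP minus Thy the call was kept in 21 of 24 refits for Itga7, in 8 of 24 for Itgb3 and in 5 of 24 for Itga6.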
